A study of Mus musculus with 20 samples.

Results

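Voltage-gated ion channels were examined as 1 gene set across the cells of the basolateral amygdala (BLA). The set holds the mouse genes named as pore-forming subunits of the Kcna, Kcnb, Kcnc, Kcnd, Kcnh and Kcnq potassium channels, as sodium channel alpha and beta subunits, as Cacna1 calcium channels and as Hcn channels. Of 60 symbols with such names among 31053 listed genes, 52 were members. A member was selected on its measured counts, as a symbol with at least 10 unique molecular identifiers (UMIs, single counted RNA molecules) in total over 9 libraries. Scn10a lay just inside this limit with 11 UMIs and Kcna3 just outside with 8, and the other symbols left out were Cacna1f, Cacna1s, Kcna7, Kcna10, Kcnh6, Scn4a and Scn11a, with 0 to 6 UMIs each. Over all genes, 15743 reached the same limit. The members comprise 8 Cacna1, 4 Hcn, 5 Kcna, 2 Kcnb, 4 Kcnc, 4 Kcnd, 7 Kcnh, 6 Kcnq, 8 sodium alpha and 4 sodium beta symbols. Kcnq1ot1 and Kcnd3os, counted here under Kcnq and Kcnd, are noncoding RNAs antisense to Kcnq1 and Kcnd3, so 50 members code for a channel subunit. Whether the counting used the strand of the reads is not given in the sources used here.

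The tissue came from wild-type male C57BL/6 mice of 13 weeks, and each library is the BLA of 1 mouse, dissociated and captured in droplets on the 10x Chromium platform. All mice drank for 6 weeks either corticosterone (CORT, the stress hormone of rodents) at 35 µg/ml or its vehicle 2-hydroxypropyl cyclodextrin (BCD). They then received 1 injection of ketamine (Ket) at 10 mg/kg or of saline (Sal), 24 h before the tissue was taken. Vehicle and saline (BCD/Sal) were given to mice 9901 and 9947, and vehicle and ketamine (BCD/Ket) to mice 9946, 9949 and 9986. Corticosterone was followed by saline in mouse 9969 (CORT/Sal) and by ketamine in mice 9967, 9968 and 9971 (CORT/Ket), so CORT/Sal stands for a single mouse here. A second CORT/Sal mouse, 9970, was left out by the rule for the set, and the libraries of the medial prefrontal cortex were not used here.

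Library quality bears on all values below. Mitochondrial RNA took a median of 33.2% to 57.9% of a barcode's UMIs in the 9 libraries, against 3.22% in mouse 9970. Barcodes with at most 12.5% mitochondrial UMIs and at least 200 genes were kept, which left 16.8% to 31.0% of the barcodes per library and 5908 in all. The kept barcodes numbered 135 to 1274 per mouse, with 287013 to 2332898 UMIs per library and a median of 826 to 2845 UMIs per barcode. Among them, 4 barcode sequences occurred in at least 2 libraries.

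Voltage-gated channels open and close with the membrane potential and so shape the electrical signals of a cell. Sodium alpha subunits form the pore that carries the upstroke of the action potential, and beta subunits assist them. Cacna1 subunits let calcium in, for transmitter release, for coupling to gene expression or, in the T-type members, near the resting potential. Potassium channels repolarize the membrane, the Kcnc subunits fast enough for trains of spikes at high rates, and the Kcnq subunits carry a slow current that restrains firing. Hcn channels open on hyperpolarization and carry a pacemaker current. In the BLA, glutamatergic projection neurons and local GABAergic interneurons differ in firing pattern, and glia also hold channels of these families.

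Members occupy several genomic neighbourhoods. On the NCBIM37 build, to which 51 of the 52 members were matched by identifier, Scn3a (chr2:65295175-65405684), Scn2a (chr2:65458914-65605504), Scn1a (chr2:66108838-66278897), Scn9a (chr2:66318137-66473009) and Scn7a (chr2:66511482-66622971) lie in a row on chromosome 2. Kcna5 (chr6:126482571-126485573), Kcna1 (chr6:126586481-126595819) and Kcna6 (chr6:126658347-126690680) lie side by side on chromosome 6. RefSeq promoter windows (GRCm38.p6, 250 bases before to 50 bases after the transcript start) were found for 33 members, 42 windows in all. The GC box, spelled GGGCGG and searched on both strands, occurred in 18 of these 42 windows (42.9%), against 35.7% of all 32851 windows of the same length. TATAAA, also searched on both strands and sharing no letters with the GC box, occurred in 2 windows (4.76%), those of Scn2a and Cacna1d, against 13.6% of all windows. The member windows held a median of 16.5 CpG dinucleotides, and all windows a median of 7. A match describes letters only and is not a binding site.

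The windows below are shown because the genes carry the contrasts described next: Kcnc1 and Scn1a were higher in GABAergic interneurons, Kcnc4 was higher in excitatory neurons, and Hcn2 was highest in oligodendrocytes. Each runs 5′ to 3′ on the strand of its gene on GRCm38.p6, with GC boxes in capitals: Kcnc1 at chr7:46396218-46396517 (plus strand), Scn1a at chr2:66440788-66441087 (minus), Kcnc4 at chr3:107458849-107459148 (minus) and Hcn2 at chr10:79716384-79716683 (plus).
Kcnc1: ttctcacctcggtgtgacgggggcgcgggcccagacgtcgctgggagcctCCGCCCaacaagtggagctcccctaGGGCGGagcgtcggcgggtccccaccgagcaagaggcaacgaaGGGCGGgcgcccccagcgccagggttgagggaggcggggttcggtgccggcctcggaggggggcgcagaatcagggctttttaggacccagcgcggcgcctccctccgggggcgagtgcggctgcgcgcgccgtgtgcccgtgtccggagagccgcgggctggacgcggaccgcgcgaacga
Scn1a: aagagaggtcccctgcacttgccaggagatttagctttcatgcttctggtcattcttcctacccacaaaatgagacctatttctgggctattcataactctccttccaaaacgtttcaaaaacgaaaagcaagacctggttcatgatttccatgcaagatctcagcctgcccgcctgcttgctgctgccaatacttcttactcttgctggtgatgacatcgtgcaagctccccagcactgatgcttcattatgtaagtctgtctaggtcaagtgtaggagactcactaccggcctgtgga
Kcnc4: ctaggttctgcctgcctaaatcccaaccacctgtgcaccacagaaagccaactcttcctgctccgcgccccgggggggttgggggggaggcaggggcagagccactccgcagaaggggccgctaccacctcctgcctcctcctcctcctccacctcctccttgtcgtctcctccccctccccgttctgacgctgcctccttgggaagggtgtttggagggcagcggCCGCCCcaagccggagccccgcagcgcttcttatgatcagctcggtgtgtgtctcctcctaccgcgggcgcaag
Hcn2: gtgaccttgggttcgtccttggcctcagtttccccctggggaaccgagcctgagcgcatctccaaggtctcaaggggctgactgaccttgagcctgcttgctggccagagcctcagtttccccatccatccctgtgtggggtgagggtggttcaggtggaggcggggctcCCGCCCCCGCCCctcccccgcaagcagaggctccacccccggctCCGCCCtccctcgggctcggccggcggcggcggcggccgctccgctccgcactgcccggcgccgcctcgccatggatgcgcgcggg
The Kcnc1 window held 41 CpG and 3 GC boxes, the Hcn2 window 26 CpG and 3 GC boxes, the Kcnc4 window 17 CpG and 1 GC box, and the Scn1a window 5 CpG and 0 GC boxes. The windows of Kcnc1 and Scn1a thus differed in these letters although both genes were higher in the same neuron class.

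The kept barcodes were clustered without the members, and a cluster took the name of a cell type when at least 3 markers of that type were among its 50 leading genes. The names therefore mean resemblance by markers. There were 1382 astrocytes (clusters of 961 and 421), 854 microglia, 756 endothelial cells, 394 oligodendrocyte precursor cells (OPCs), 373 oligodendrocytes, 271 pericytes or smooth muscle cells, 253 excitatory neurons, 157 striatal-like projection neurons, 153 GABAergic interneurons, 65 ependymal or choroid cells and 52 border macrophages or other immune cells. The excitatory neurons held Slc17a7, the vesicular glutamate transporter, at 1264 CPM, where CPM are counts scaled to the same total of UMIs (1000000) in every class and mouse. Gad1, which makes GABA, stood at 1483 CPM in the GABAergic interneurons, whose leading genes included Sst, Vip and Npy. Drd1, Drd2 and Penk led the striatal-like cells, which the labels' dissection of the BLA does not name. A cluster of 809 cells led by Cpne7 had Slc17a7 at 1017 CPM and Gad1 at 23.2 CPM, yet only 1 of its leading genes was a marker, so it carries no cell type name here, and 47.0% of its cells came from mouse 9901. Values below are CPM of the counts summed per mouse and class, for mice with at least 10 cells of the class, given as mean ± SD with n mice. UMI counts carry no gene length, so levels are compared between classes and not between genes. Fewer RNA molecules per cell and fewer cells of a subtype cannot be told apart in such sums.

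Summed over the 50 coding members, channel RNA was concentrated in neurons. The sum was 6256 ± 969 CPM in excitatory neurons (n = 8, from 4461 to 7526), 7285 ± 1039 CPM in GABAergic interneurons (n = 6, from 5770 to 8532) and 6919 ± 1046 CPM in striatal-like neurons (n = 6, from 5787 to 8713). The ranges of these neuron classes overlapped. The Cpne7-led cluster reached 7689 ± 369 CPM (n = 7). OPCs came next with 2798 ± 445 CPM (n = 6, from 2318 to 3346), below every neuronal value and above every value of oligodendrocytes, at 1211 ± 288 CPM (n = 8, from 765 to 1648). Astrocytes held 732 ± 229 CPM (n = 9), ependymal or choroid cells 737 ± 396 CPM (n = 3), pericytes or smooth muscle cells 399.8 ± 137 CPM (n = 7), microglia 387 ± 172 CPM (n = 6), endothelial cells 255 ± 125 CPM (n = 9) and border macrophages 75.4 ± 35.4 CPM (n = 4). A cluster of 327 cells led by Fosb and other early response genes, which received no name, held 321 ± 224 CPM (n = 6). It had the endothelial genes Cldn5 and Flt1 at 4523 and 5494 CPM, against 5495 and 5975 CPM in the endothelial cluster.

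**Figure D1:**
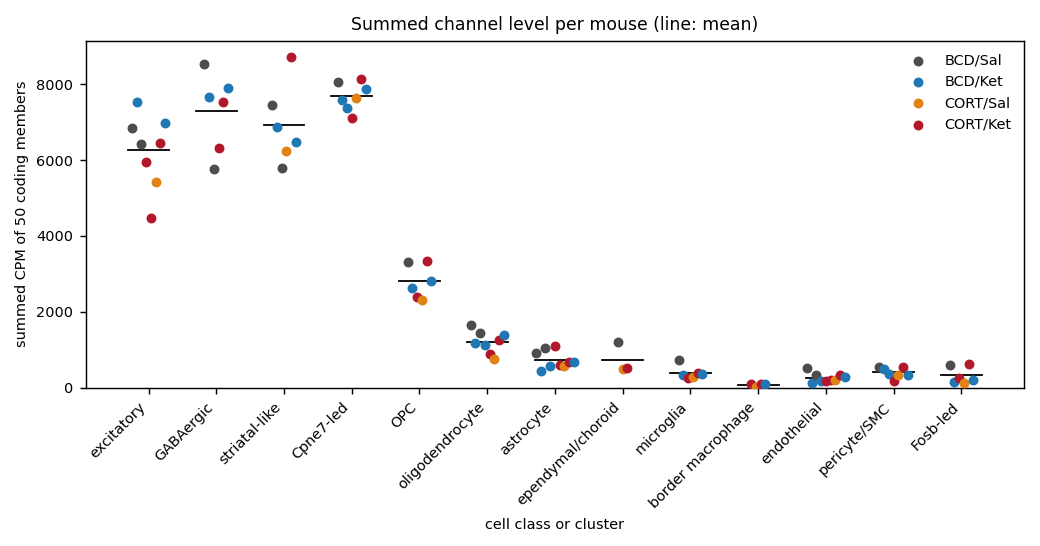
Summed CPM of the 50 coding members (vertical axis) in each cell class or cluster (horizontal axis), 1 point per mouse coloured by group and a line at the mean. Neuronal points lie between 4461 and 8713 CPM, OPCs between 2318 and 3346 CPM, and no oligodendrocyte point is above 1648 CPM.

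Within each mouse, the neuron classes together were set against all other named classes together. Of the 52 members, 35 (67.3%) were higher in neurons in 9 of 9 mice and 0 were lower in 9 of 9. Over all 15308 genes counted, 13.6% were higher in neurons in every mouse, and 1944 genes were lower there in every mouse. These are descriptions and not tests, because the clusters were formed from the same cells. Among the channel partner genes, a list of auxiliary, regulatory and anchoring genes that also holds other channels, 24 of 46 were higher in neurons in 9 of 9 mice and 0 were lower. Among the members outside the 35, Hcn3, Hcn4, Kcnd3os, Kcnh5, Scn4b and Scn10a had at most 83 UMIs in neurons and were higher there in 5 to 8 mice. Scn10a, with 10 of its 11 UMIs in neurons, reached the limit for members only through them. Cacna1d, Hcn2, Kcna1, Kcna5, Kcna6, Kcnd1, Kcnh8, Kcnq1 and Scn7a had more UMIs in the other classes than in neurons. The other classes also held more UMIs in total over all genes. Mean CPM was higher in neurons for Cacna1d (120 against 56.3) and Kcna1 (153 against 72.1), each in 8 of 9 mice. It was also higher there for Hcn2 (42.2 against 37.7, 7 of 9 mice) and Kcnd1 (14.8 against 8.04, 6 of 9). For Scn7a (10.1 against 3.51) and Kcna5 (8.13 against 4.61) it was higher in 5 of 9. Kcna6, Kcnh8 and Kcnq1 had the lower mean CPM in neurons. For Kcna6, neurons were higher in 4 of 9 mice. For Kcnq1, the subunit best known from heart and epithelia, neurons held 0 UMIs and the other classes 17.

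By the class with the highest mean, 21 members peaked in striatal-like neurons, 13 in GABAergic interneurons, 10 in excitatory neurons, 3 in oligodendrocytes (Hcn2, Kcna1 and Kcna6), 2 in ependymal or choroid cells (Kcnh2 and Scn7a) and 1 each in endothelial cells (Kcnq1), microglia (Kcnd1) and OPCs (Kcnh8). These peaks leave out the unnamed clusters. A peak can rest on few molecules, as for Kcnh2, with 5 UMIs in the ependymal or choroid class. Kcnh8 (36 of 44 UMIs in OPCs) and Scn10a (6 of 11 in striatal-like neurons) reached the limit for members only through these classes. Kcnq1 did so only through endothelial cells and the Fosb-led cluster together, with 17 and 9 of its 27 UMIs.

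**Figure D2:**
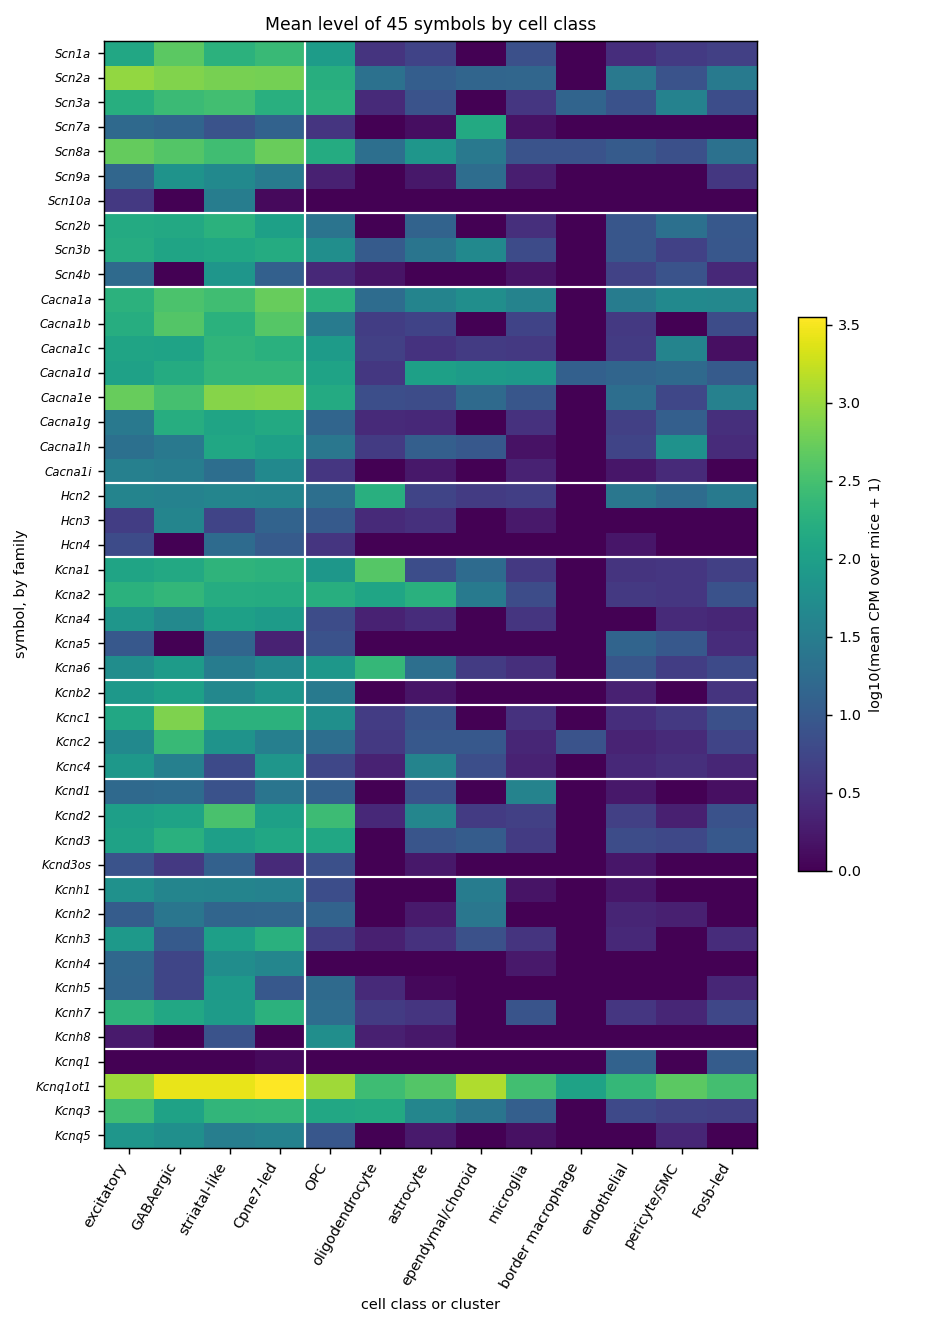
Mean CPM over mice of 45 of the symbols (rows, by family) in each cell class or cluster (columns), as log10 of CPM + 1. The 4 neuronal columns at the left are filled for most rows, and Kcna1, Kcna6 and Hcn2 stand out in the oligodendrocyte column.

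Among the sodium alpha subunits, Scn2a, which serves the axon initial segment, spanned 643 to 1136 CPM in excitatory neurons (median 966, mean 937 ± 169.5, n = 8). The same gene spanned 403 to 1309.6 CPM in GABAergic interneurons (median 691, n = 6) and 543 to 852 CPM in striatal-like neurons (median 619, n = 6). The excitatory range overlapped both others. Scn8a, the subunit of mature axon initial segments and nodes, ran from 301 to 727 CPM in excitatory neurons (median 498, mean 511 ± 123, n = 8), from 246 to 557 CPM in GABAergic interneurons (median 394) and from 213 to 371 CPM in striatal-like neurons (median 301). Scn3a, known as an embryonic subunit, was spread more evenly, with 166 ± 34.5 CPM in excitatory neurons (n = 8), 262 ± 192 CPM in GABAergic interneurons (n = 6), 298 ± 109 CPM in striatal-like neurons (n = 6) and 182 ± 29.7 CPM in OPCs (n = 6).

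The beta subunits differed among themselves in their classes. Scn3b ranged from 96.4 to 222 CPM in excitatory neurons (median 164, mean 156 ± 41.2, n = 8), and its means in the other neuron classes, 116 ± 51.1 and 129.9 ± 66.4 CPM, lay within that range. Scn2b was at 147 ± 72.8, 137 ± 31.7 and 184 ± 72.6 CPM in excitatory, GABAergic and striatal-like cells, with overlapping ranges. Scn4b, a subunit linked to resurgent sodium current, had 43 UMIs in striatal-like neurons (71.4 ± 75.8 CPM, n = 6, from 0 to 183) and 21 in excitatory neurons. In GABAergic interneurons Scn4b was at 0 UMIs in 6 of 6 mice, which allows up to 9.23 CPM over the class (3 counts, counting error only).

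For the calcium channels, Cacna1e, the R-type pore, ran from 453 to 1108 CPM in striatal-like neurons (median 814, mean 790.1 ± 291, n = 6), against 522 ± 166 CPM in excitatory neurons (n = 8) and 318 ± 199 CPM in GABAergic interneurons (n = 6). Cacna1a, the P/Q-type pore of presynaptic terminals, ran from 93.5 to 575 CPM in GABAergic interneurons (median 347, mean 343 ± 185, n = 6). The spread between mice was wide for both genes, and the neuronal ranges overlapped. Cacna1b, the N-type pore, was at 392 ± 211 CPM in GABAergic interneurons (n = 6) and 164 ± 35.2 CPM in excitatory neurons (n = 8). The L-type genes Cacna1c and Cacna1d were at 207 ± 53.1 and 222 ± 71.9 CPM in striatal-like neurons and at 118 ± 37.2 and 105 ± 27.7 CPM in excitatory neurons. The excitatory values are of the named excitatory neurons only. In 6 mice the Cpne7-led cluster held Cacna1e at 924 ± 193 CPM and Cacna1b at 374 ± 130 CPM. Cacna1c was there at 190 ± 63.2 CPM and Cacna1d at 234 ± 58.3 CPM. Each was above the excitatory neurons of the same mouse in at least 5 of the 6 mice.

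Of the Hcn genes, Hcn2 ran from 74.6 to 337 CPM in oligodendrocytes (median 146, mean 174 ± 99.9, n = 8) and had lower means in neurons, 39.4 ± 34.3 CPM in excitatory and 36.8 ± 24.3 CPM in GABAergic cells. Hcn3 and Hcn4 were scarce, at 53 and 30 UMIs over the 9 libraries.

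Of the potassium channels, Kcna2, a subunit of the axonal delayed rectifier, ran from 125 to 334 CPM in GABAergic interneurons (median 226, mean 225 ± 88.7, n = 6). Kcnb2, a delayed rectifier of another family, ran from 38.4 to 187 CPM in GABAergic interneurons (median 105, mean 104 ± 51.6, n = 6). For both genes the ranges of the neuron classes overlapped. Kcnd2, an A-type subunit of dendrites, ran from 85.2 to 572 CPM in striatal-like neurons (median 342, mean 334 ± 209, n = 6), against 98.4 ± 26.4 CPM in excitatory neurons (n = 8). Kcnd3, of the same A-type family, ran from 38.4 to 302 CPM in GABAergic interneurons (median 176, mean 178 ± 103, n = 6).

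Kcnc1, the Kcnc member with most UMIs, is described with the interneurons below. Kcnh7, of the Erg potassium channels, ran from 109.6 to 237 CPM in excitatory neurons (median 199.7, mean 198 ± 40.8, n = 8). Kcnh3, of the Elk channels, ran from 0 to 222 CPM in striatal-like neurons (median 108, mean 98.6 ± 79.1, n = 6) and from 57.9 to 109.7 CPM in excitatory neurons (median 81.3, n = 8). The excitatory values of Kcnh3 were the more even of the pair. Kcnq3, a subunit of the M-current channel, ran from 201 to 390.3 CPM in excitatory neurons (median 277, mean 289 ± 70.7, n = 8).

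Excitatory and GABAergic neurons were compared within the 6 mice that had at least 10 cells of both. Of 46 members counted, 5 (10.9%) were higher in GABAergic interneurons in 6 of 6 mice, where 4.93% of all 10327 genes behaved so, and 5 (10.9%) were higher in excitatory neurons in 6 of 6 mice, where 7.95% of all genes did. The second share lies near its background. Kcnc1, Kcnc2, Scn1a and Cacna1g were among those higher in interneurons, and Kcnq3, Kcnc4 and Kcnh3 among those higher in excitatory neurons. Without CORT/Ket mouse 9971 the second count became 9. Of 38 partner genes, 8 were higher and 8 lower in excitatory neurons in every mouse.

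Kcnc1, a subunit of fast-spiking interneurons, ran from 499 to 865 CPM in GABAergic interneurons (median 745, mean 716 ± 148, n = 6) and from 20.1 to 189 CPM in excitatory neurons (median 151, mean 135 ± 51.0, n = 8). The groups did not overlap, and the interneuron mean was 4.81 times the excitatory mean in the same 6 mice. Kcnc2, its partner subunit, ran from 54.7 to 374 CPM in interneurons (median 257, mean 246 ± 113) and from 20.1 to 71.0 CPM in excitatory neurons (median 49.2, mean 47.7 ± 17.5). One interneuron value, 54.7 CPM of CORT/Ket mouse 9971, fell within the excitatory range, and the ratio of means was 4.82. Scn1a, the sodium alpha subunit on which many interneurons depend for firing, ran from 316 to 604 CPM in interneurons (median 477, mean 455 ± 102) and from 20.1 to 229 CPM in excitatory neurons (median 147, mean 133 ± 73.5). Its ranges were separate, with a ratio of means of 2.74. These contrasts are with the named excitatory neurons only. In 6 mice the Cpne7-led cluster held Scn1a at 250 ± 68.2 CPM, Kcnc1 at 187 ± 70.5 CPM and Kcnc2 at 30.7 ± 14.4 CPM.

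Cacna1g, a T-type calcium channel, ran from 47.0 to 274 CPM in interneurons (median 158, mean 159.9 ± 94.2, n = 6) and from 0 to 75.9 CPM in excitatory neurons (median 23.8, mean 26.5 ± 25.4, n = 8), on 39 and 35 UMIs. The ranges overlapped, and the ratio of means was 4.53. Cacna1g was not particular to interneurons, as striatal-like neurons held it at 118 ± 148 CPM (n = 6). The Cpne7-led cluster held it at 130 ± 65.9 CPM in 6 mice, above the excitatory neurons of the same mouse in 5 of them. Scn9a, a further sodium alpha subunit, was among the 5 members with the smallest ratio of excitatory to GABAergic level, a median of 0.352 over mice. It rested on 16 UMIs in interneurons, from 0 to 187 CPM (median 38.8), and was higher there in only 4 of 6 mice.

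In the other direction, Kcnq3 ran from 0 to 157 CPM in interneurons (median 125, mean 109.8 ± 59.2, n = 6), under all of its excitatory values. Its excitatory mean in the same 6 mice was 2.82 times the interneuron mean. Kcnc4, the Kcnc subunit with an inactivating current, ran from 40.2 to 119 CPM in excitatory neurons (median 75.4, mean 76.5 ± 28.5, n = 8) and from 0 to 105 CPM in interneurons (median 29.4, mean 33.8 ± 38.7, n = 6). Its ranges overlapped, and within the Kcnc family Kcnc4 went against Kcnc1 and Kcnc2. Kcnh3 had 3 UMIs in interneurons, from 0 to 27.4 CPM (median 3.92), below all excitatory values. Kcnh1, an Eag potassium channel, was at 61.3 ± 29.8 CPM in excitatory neurons (n = 8, from 20.1 to 118, median 58.5) and 40.2 ± 42.6 CPM in interneurons (n = 6, from 0 to 105, median 29.4). It was higher in excitatory neurons in 4 of 6 mice and, with Scn4b, completes the 5 members with the largest ratio.

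**Figure D3:**
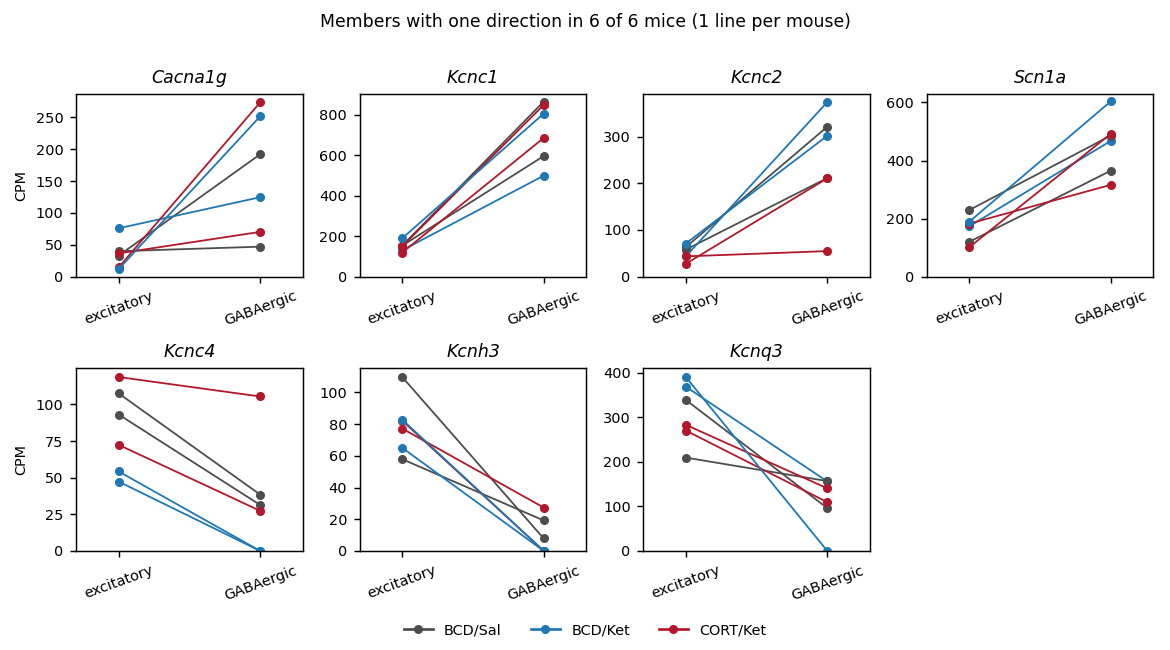
CPM (vertical axis, from 0) in excitatory neurons and GABAergic interneurons, 1 line per mouse coloured by group, for 7 members with the same direction in 6 of 6 mice. The lines of Kcnc1 rise to between 499 and 865 CPM in interneurons, and those of Kcnq3 fall to between 0 and 157 CPM.

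Excitatory and striatal-like neurons were compared within 6 mice. Of 45 members, 5 (11.1%) were higher in excitatory neurons in 6 of 6 mice, against 6.96% of 10512 genes, and 3 (6.67%) were lower in 6 of 6, against 4.41%. Scn2a, Scn8a, Kcnh7 and Kcnc4 were among the higher members. The excitatory mean was 1.49 times the striatal-like mean for Scn2a, 1.93 times for Scn8a and 2.45 times for Kcnh7. Kcnc4 had 98 UMIs in excitatory and 2 in striatal-like neurons of these mice. The lower members were Cacna1c, Cacna1d and Kcnh4, an Elk channel, with striatal-like means 1.77, 1.99 and 3.76 times those of excitatory neurons. Both shares rest on few members. The sodium channel members did not share a direction, as Scn3a and Scn9a were higher in striatal-like neurons in 5 of 6 mice.

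The Cpne7-led cluster was compared with excitatory neurons in 6 mice. Of 48 members, 4 (8.33%) were higher in excitatory neurons in 6 of 6 mice and 2 (4.17%) lower, against 11.1% and 9.47% of 11608 genes, so neither share exceeds its background. The higher members were Kcnq3, Scn2a, Kcnq5 and Kcnh1, with excitatory means 1.26, 1.47, 1.77 and 2.25 times those of the cluster, and Cacna1d was among the lower ones, with a cluster mean 2.22 times the excitatory mean. Some members were higher in the cluster in 5 of 6 mice. Of these, chosen after their values were seen, Cacna1a was at 524 ± 167 CPM in the cluster (n = 7, from 239 to 733) and 190.2 ± 74.9 CPM in excitatory neurons (n = 8, from 82.8 to 303), and the noncoding Kcnq1ot1 at 3528 ± 1363 CPM (from 1409.7 to 5391) and 1082 ± 418 CPM (from 502 to 1768). Kcnq1ot1 had 13006 UMIs over the 9 libraries, and as a noncoding RNA it is not in the sums above. The pan-neuronal genes (Snap25, Syt1, Rbfox3, Stmn2, Stmn3, Meg3, Snhg11 and Thy1) together averaged 46921 CPM in the cluster and 21665 CPM in excitatory neurons. The sum does not stand for each gene in it. Over all cells, Meg3, a noncoding RNA, was at 35702 CPM in the cluster and 11170 CPM in excitatory neurons. Snap25 went the other way, at 1067 and 2416 CPM.

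In droplet data free RNA adds counts to cells that do not make it, so in glia and vessel cells each member is given beside the share that the same 8 pan-neuronal genes reached there. The share is of their summed CPM, in which Meg3 weighs more than Snap25. That share, relative to neurons of the same mouse, averaged 1.44% in oligodendrocytes, 2.23% in astrocytes, 2.52% in microglia, 2.22% in endothelial cells, 2.86% in pericytes or smooth muscle cells, 1.57% in ependymal or choroid cells and 10.0% in OPCs. For a member, the percentage given is its mean CPM in the class over its mean CPM in neurons of the same mice, and a value at or under these shares is read as background. Above the share in every mouse, with at least 10 UMIs in the class, were 21 members in OPCs (of 31 with that many UMIs), 6 in oligodendrocytes (of 9), 5 in microglia (of 13), 4 in ependymal or choroid cells (of 4), 2 in astrocytes (of 25), 2 in pericytes or smooth muscle cells (of 11) and 1 in endothelial cells (of 12). Kcnq1ot1 was among them in each of these classes. The same count over all genes was not made, so these counts do not set the members apart from other genes. The limit of 10 UMIs was also applied in the class itself, which favours members that are high there.

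Oligodendrocytes held a small set of channels at levels above neurons. Kcna1, the axonal delayed rectifier, ran from 242 to 619.5 CPM (median 366, mean 413 ± 147, n = 8), or 249% of the level in neurons of the same mice, from 107% to 328%. Kcna6, of the same family, ran from 124 to 476 CPM (median 171, mean 233 ± 119), or 463% of neurons, and Hcn2 reached 393% of neurons. All 3 were above neurons in 8 of 8 mice. Kcnq3 at 144 ± 41.3 CPM (61.9% of neurons) and Kcna2 at 122 ± 40.9 CPM (63.2%) were present without passing the neuronal mean. Kcna1 and Kcna6 are the neighbours on chromosome 6, and the third gene of that row, Kcna5, had 48 UMIs in all libraries together.

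OPCs, dividing glia that receive synapses from neurons, had the broadest set outside neurons. Kcnd2 ran from 223 to 359.9 CPM (median 254, mean 266 ± 48.5, n = 6), or 221% of neurons of the same mice. Kcnd3 reached 127 ± 35.0 CPM (140% of neurons) and Kcna6 74.4 ± 26.0 CPM (157%). The A-type genes Kcnd2 and Kcnd3 were thus both above the neuronal mean. Scn3a reached 182 ± 29.7 CPM (93.2%) and Cacna1a 184 ± 24.4 CPM (88.0%), close to neurons, while Scn2a, at 169 ± 54.4 CPM, stayed far below its 937 CPM in excitatory neurons. Kcnh8, an Elk channel, ran from 15.0 to 133 CPM (median 47.4, mean 55.5 ± 41.0) on 36 UMIs, and neurons held 5 UMIs of it. With 44 UMIs over the 9 libraries, Kcnh8 reached the limit for members only through OPCs, so its level there is no separate result. All of these OPC values except that of Scn2a were above the pan-neuronal share in 6 of 6 mice.

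Astrocytes held Kcna2 at 177 ± 88.2 CPM (n = 9, from 0 to 273, median 197) on 543 UMIs, or 90.0% of neurons, and Cacna1d at 102 ± 96.7 CPM (from 0 to 273, median 61.2), or 84.5%. Both were above the pan-neuronal share in 8 of 9 mice, and the SD of Cacna1d was close to its mean. Microglia held Kcnd1, another A-type gene, at 21.9 to 58.4 CPM (median 35.9, mean 37.1 ± 13.1, n = 6), or 304% of neurons, and Cacna1d at 81.0 ± 48.7 CPM (65.8%), each above the share in 6 of 6 mice. In pericytes or smooth muscle cells, Cacna1h, a T-type channel, was at 62.8 ± 61.9 CPM (n = 7, from 19.2 to 199.9, median 36.9) on 28 UMIs, or 186% of neurons. Cacna1c, the L-type channel of smooth muscle contraction, reached 33.4% of neurons on 29 UMIs. Scn7a, a sodium-sensing relative of the alpha subunits, had 25 UMIs in ependymal or choroid cells, at 298 CPM in BCD/Sal mouse 9901, 74.0 CPM in CORT/Sal mouse 9969 and 51.8 CPM in CORT/Ket mouse 9971. Kcnq1 had 17 UMIs in endothelial cells (12.1 ± 10.4 CPM, n = 9, from 0 to 29.4), where 7 of 9 mice held any, and 0 in excitatory neurons, which allows up to 2.24 CPM. The Fosb-led cluster, with its high Cldn5 and Flt1, held 9 further Kcnq1 UMIs (9.92 ± 10.8 CPM, n = 6, from 0 to 31.0). Kcnq1 reached the limit for members only through these cells together, so its level there is no separate result.

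**Figure D4:**
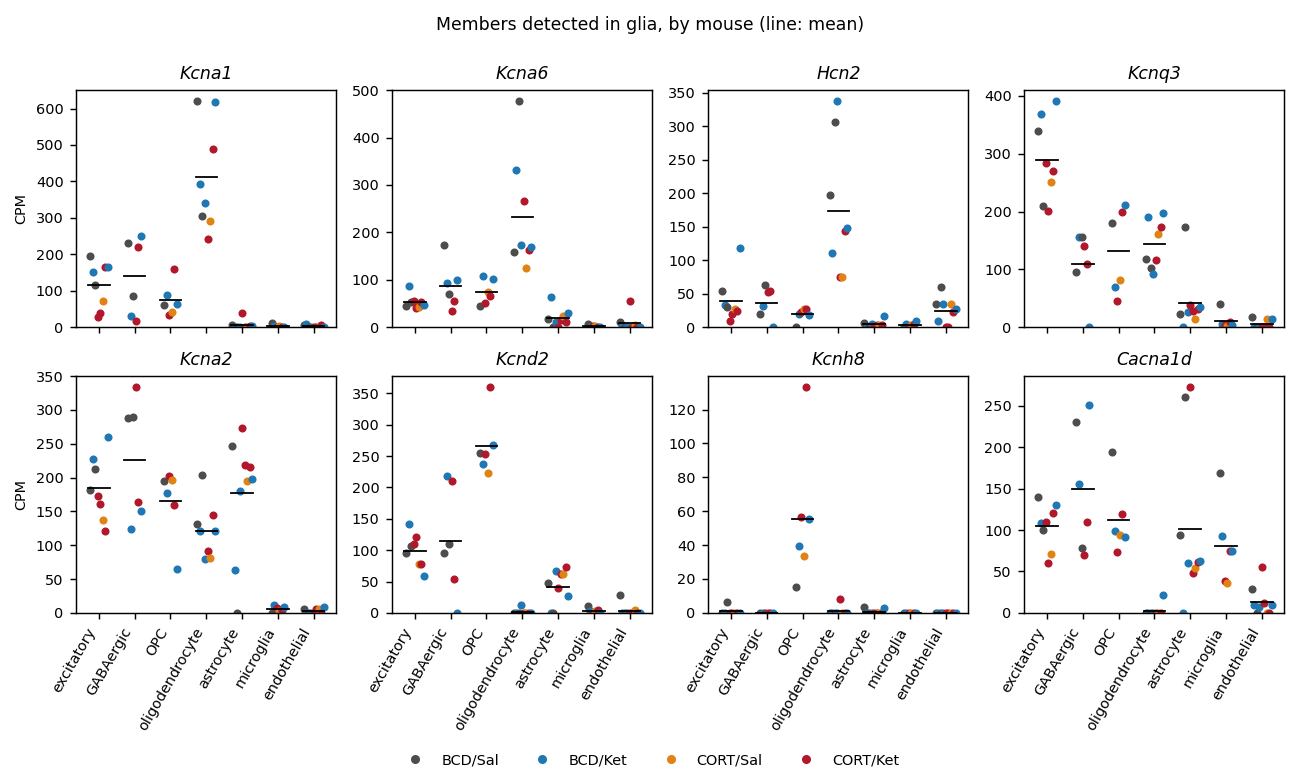
CPM (vertical axis, from 0) of 8 members in excitatory neurons, GABAergic interneurons and 5 classes of glia and endothelium, 1 point per mouse coloured by group and a line at the mean. Kcna1 in oligodendrocytes lies between 242 and 619.5 CPM, and Kcnd2 in OPCs between 223 and 359.9 CPM.

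The last question was whether corticosterone or ketamine changed the members within a class. Counts summed per mouse and class were compared by edgeR's quasi-likelihood test, with p-values adjusted (Benjamini-Hochberg) over all genes of the class and a threshold of 0.05. No member passed in any class tested. The classes tested numbered 6, 8, 5, 8 and 4 in the 5 comparisons, in the order given below. GABAergic interneurons were tested only for BCD/Ket against BCD/Sal and CORT/Ket against BCD/Ket. Striatal-like neurons were tested only for BCD/Ket and CORT/Sal, each against BCD/Sal. Microglia, OPCs and pericytes or smooth muscle cells were tested only for CORT/Ket against BCD/Ket and against CORT/Sal. For BCD/Ket against BCD/Sal the count was 0 of 94 pairs of member and class, where 0.0116% of 25849 pairs of gene and class passed. At an unadjusted p under 0.05 were 4 member pairs (4.26%) and 2.94% of all pairs. For CORT/Ket against BCD/Ket, the comparison with most mice, it was 0 of 105, where 0.037% of 37885 passed, with 2 (1.9%) against 2.24% at that unadjusted p. For CORT/Sal against BCD/Sal it was 0 of 75, where 0.0202% of 24754 passed, with 7 (9.33%) against 5.41% at the unadjusted p. For CORT/Ket against CORT/Sal it was 0 of 86, where 0.0134% of 37379 passed, with 3 (3.49%) against 2.25% at the unadjusted p. The difference between the ketamine effects with and without corticosterone passed for 0 of 57, where 0% of 23502 passed, with 3 (5.26%) against 2.88% at the unadjusted p. DESeq2 likewise passed 0 members in all 5 comparisons, with 1, 0, 3, 1 and 1 at an unadjusted p under 0.05, where 0.491%, 0.472%, 1.28%, 0.348% and 0.366% of all pairs were. Contrasts with CORT/Sal rest on 1 mouse of that group, which is assumed to vary like the others. So few genes passed at all that these counts do not show the members to be unchanged.

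**Figure D5:**
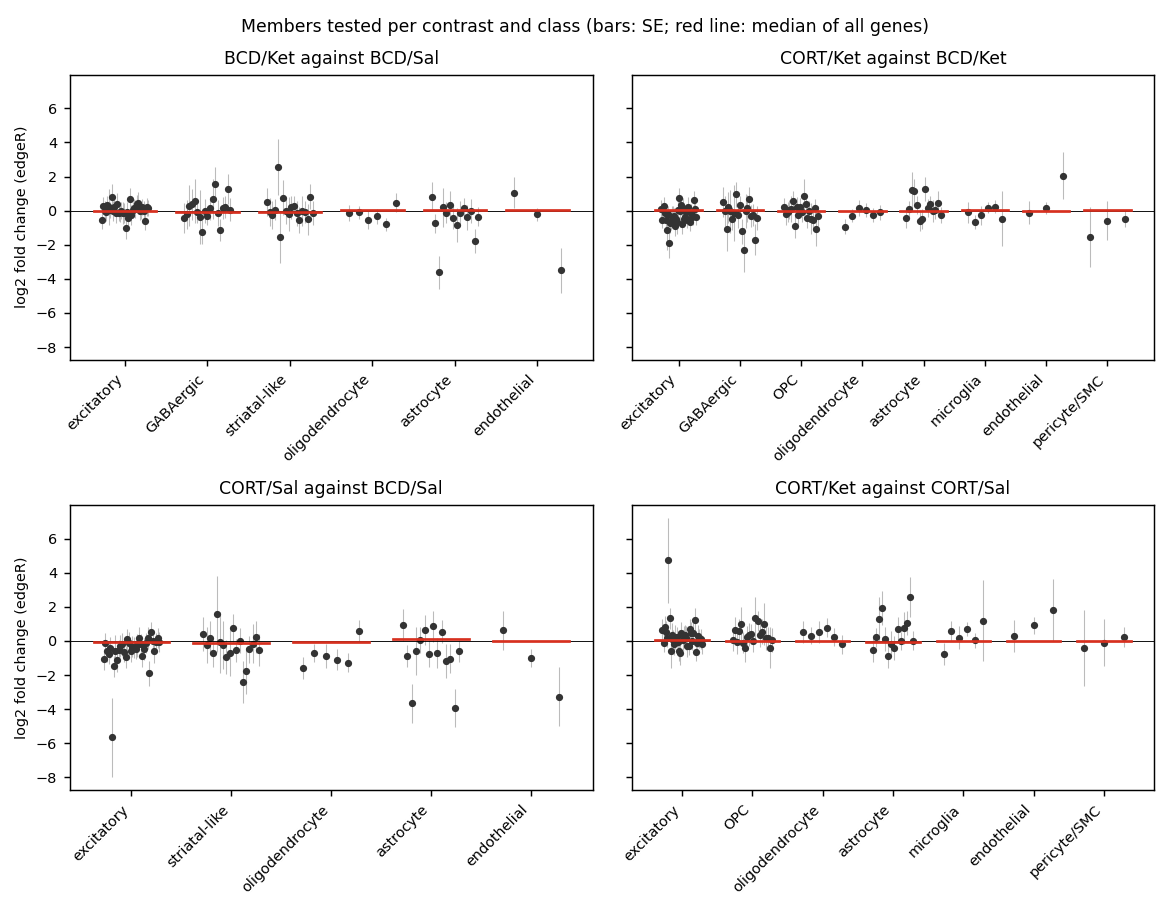
Fitted log2 fold change (vertical axis) of each member tested, by cell class (horizontal axis), in 4 comparisons of treatment groups. The standard error shown is derived from the fold change and the F statistic of the test. Red lines mark the median of all genes tested in the class, and no point passed an adjusted p of 0.05 in edgeR.

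In excitatory neurons 34 members were tested. The level summed over all 50 coding members, and not over these 34 alone, is given per mouse. It was 6843 and 6414 CPM in BCD/Sal and 7526 and 6991 CPM in BCD/Ket. In the corticosterone groups it was 5424 CPM in CORT/Sal and 5944, 4461 and 6448 CPM in CORT/Ket. The BCD/Ket values were the highest, and the values of CORT/Sal and CORT/Ket overlapped. The 34 tested members had a median log2 fold change of -0.38 for CORT/Sal relative to BCD/Sal, against -0.06 over all genes. Medians of the members were negative in the other classes of that comparison too, at -0.66 in astrocytes (14 members, against 0.10 over all genes), -0.99 in oligodendrocytes (6, against -0.04), -0.98 in endothelial cells (3, against -0.01) and -0.24 in striatal-like neurons (18, against -0.14), and all of them rest on the same CORT/Sal mouse. For CORT/Ket relative to BCD/Ket, the median of the 34 was -0.35 against 0.02 over all genes. Medians of the other classes lay there between -0.59 in pericytes or smooth muscle cells (3 members) and 0.15 in endothelial cells (3 members). In excitatory neurons the medians were 0.01 against -0.01 for BCD/Ket relative to BCD/Sal and 0.19 against 0.04 for CORT/Ket relative to CORT/Sal. The pan-neuronal genes moved in a like order, with 22968 and 21146 CPM in BCD/Sal, 25452 and 21232 CPM in BCD/Ket, 19041 CPM in CORT/Sal and 21604, 18446 and 23433 CPM in CORT/Ket, and their part in the medians was not tested. The comparisons share groups, so they are not independent of each other.

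Scn1a in excitatory neurons stood at 119.9 and 229 CPM in BCD/Sal, 174 and 189 CPM in BCD/Ket, 47.1 CPM in CORT/Sal and 183, 20.1 and 101 CPM in CORT/Ket, so the lowest value was that of a CORT/Ket mouse. Its log2 fold change for CORT/Sal against BCD/Sal was -1.89 with a standard error of 0.73 (edgeR adjusted p = 0.96). Hcn2 in excitatory neurons was chosen after its values were seen. It stood at 53.8 and 29.9 CPM in BCD/Sal and 32.5 and 118 CPM in BCD/Ket. In the corticosterone groups it was at 27.5 CPM in CORT/Sal and 9.13, 20.1 and 24.1 CPM in CORT/Ket. The CORT/Ket values were below those of both BCD groups, on 49 UMIs in all 8 mice, with a log2 fold change of -1.92 against BCD/Ket (standard error 0.87, edgeR adjusted p = 1).

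In oligodendrocytes Hcn2 stood at 198 and 306 CPM in BCD/Sal, 110.5, 337 and 148 CPM in BCD/Ket, 74.6 CPM in CORT/Sal and 75.1 and 144 CPM in CORT/Ket. Both BCD/Sal values were above all values of the corticosterone groups. The log2 fold change was -1.60 with a standard error of 0.65 for CORT/Sal against BCD/Sal (edgeR adjusted p = 0.52) and -0.94 with a standard error of 0.44 for CORT/Ket against BCD/Ket (edgeR adjusted p = 1). The smallest adjusted p of any member belonged to Cacna1e in astrocytes for BCD/Ket against BCD/Sal, with a log2 fold change of -3.62, a standard error of 0.95 and an edgeR adjusted p of 0.17. Cacna1e rested there on 18 UMIs in 9 mice, with 33.8 CPM in BCD/Sal mouse 9901, 0 in 9947 and 0 to 2.70 CPM in BCD/Ket. Scn2a in astrocytes likewise stood at 40.5 CPM in mouse 9901 and 0 in 9947. Astrocytes of mouse 9901 also held the most pan-neuronal RNA, 1941 CPM against 177 to 1085 CPM in the other mice, and its part in these values was not tested.

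Among the partner genes, 1 pair of gene and class passed in all, Ank3 in astrocytes for CORT/Sal against BCD/Sal, of 63 tested. Ank3 codes for ankyrin-G, the scaffold that gathers sodium and Kcnq channels at the axon initial segment. It stood at 70.9 and 86.8 CPM in BCD/Sal, on 21 and 1 UMIs, and at 0 in CORT/Sal. A count of 0 allows up to 6.02 CPM in the CORT/Sal mouse, while the single UMI of the second BCD/Sal mouse lies under that mouse's own limit of 3 counts, 260 CPM, so no fold is given. The edgeR adjusted p was 0.0012, and it was 1 by DESeq2, 0.089 with only the groups of the contrast in the fit and 1.00 in the additive fit, so the call was lost in 3 of 17 alternatives that gave a value (adjusted p from 5.4e-04 to 1). No value was had without either BCD/Sal mouse. The mice left out in the alternatives that gave a value were of BCD/Ket or CORT/Ket, outside the contrast. Joining the unnamed clusters, or testing the Cpne7-led cluster as well, left the astrocyte counts unchanged, so those alternatives could not alter the call. The pan-neuronal genes in those astrocytes stood at 1941 and 434 CPM in BCD/Sal and 177 CPM in CORT/Sal, and their part in the difference was not tested. In the Cpne7-led cluster, 35 members were tested for CORT/Ket against BCD/Ket and against CORT/Sal, and 0 passed (edgeR). At an unadjusted p under 0.05 were 4 and 0 of them, against 5% and 2.31% of 5324 genes.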

How the data were processed

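The authors deposited 1 matrix of unnormalized UMI counts (genes by barcodes) for each BLA library, from Cell Ranger 3.0.2 per the file headers. Alignment was to mm9 and later steps used Seurat 3.1.1 by the submitters' notes, and the annotation counted on is not given in the sources used here. For clustering, each barcode was scaled to a total of 10000 counts, taken to the log scale and reduced to 2000 variable genes, without the members (30 principal components, 20 neighbours, Leiden resolution 0.8, seed 1), with Python 3.11.15, scanpy 1.11.5, scikit-learn 1.9.0, igraph 0.11.9 and leidenalg 0.10.2. No doublets were removed in the values reported. Counts summed per mouse and class were tested with edgeR 4.0.16 in R 4.3.3 (TMM, filterByExpr, robust quasi-likelihood, 4 groups in 1 fit). The standard errors given with edgeR values are the absolute log2 fold change over the square root of the test's F statistic. They are not a separate estimate. DESeq2 1.42.0 was the alternative. The test was checked on simulated data. A class was tested where each group had at least 2 mice, or the CORT/Sal mouse, with at least 10 cells. The depth per library was 811628 to 7281768 UMIs over all barcodes. Levels between classes were described without a test.

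Values in every mouse, or their lowest, median and highest, are given for the 2 members of each family with most UMIs in the class of their highest mean, and for the 5 smallest and 5 largest ratios of excitatory to GABAergic level among members with at least 50 UMIs in neurons. Other members are named with ranges or counts. Hcn2 in excitatory neurons, also given per mouse, was chosen after its values were seen. The members, the marker lists and the partner list were chosen with earlier results of these data known. Some members are not reported here by name, and they remain in the counts and sums.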

Additional observations from a re-analysis of the deposited data

Results flagged for a closer look

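The library of CORT/Sal mouse 9970, which enters no comparison, held channel RNA as well: 51 of the 52 members had more than 3 UMIs in it, and 0 of the 8 symbols left out for low counts did. This is a signal in data that the comparisons do not use, above what a count of 0 allows. The members had been selected for at least 10 UMIs in the other libraries, and the symbols left out for fewer. The same count over all genes was not made, so these counts do not set the members apart from other genes. When clustered with the others, 2344 of its 2397 kept barcodes fell in a cluster named by red blood cell genes, with 4488 CPM of channel RNA and 17791 CPM of pan-neuronal RNA, and 19 fell among excitatory neurons, with 6069 CPM of channel RNA.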

How the results depend on the processing

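No member passed the treatment tests under any of the 20 to 24 alternatives computed per comparison, and leaving out 1 mouse at a time gave 0 in every case. The alternatives with 1 BCD/Sal mouse or without the CORT/Sal mouse gave no value for the comparisons that need them. The pairs of member and class tested ranged widely over the alternatives. They numbered 3 to 267 for BCD/Ket against BCD/Sal, 16 to 342 for CORT/Ket against BCD/Ket and 3 to 221 for CORT/Sal against BCD/Sal. For CORT/Ket against CORT/Sal they numbered 16 to 303, and for the difference of the ketamine effects 1 to 171. The alternatives with fewest pairs say little. The number of members higher in neurons in every mouse, 35, was 18 with mouse 9970 included, 35 to 36 with 1 mouse left out and 24 to 38 otherwise. The 5 members higher in excitatory than in GABAergic cells became 9 with at least 500 genes per barcode, 2 with mouse 9970 included, and 5 to 9 with 1 mouse left out, 9 being without CORT/Ket mouse 9971. The 5 members higher in GABAergic cells became 3 with mouse 9970 included and 5 to 7 with 1 mouse left out. With mouse 9970 included, its 2344 barcodes named by red blood cell genes counted among the other classes, with 17791 CPM of pan-neuronal RNA. The excitatory and GABAergic counts of that setting rested on 9 mice, against 6 in the main setting. More mice also make agreement in every mouse rarer by construction, and the cause of these shifts was not tested. A mitochondrial limit of 5% and a minimum of 30 cells gave no value for the excitatory and GABAergic counts. Joining the Cpne7-led cluster with the excitatory neurons and the Fosb-led cluster with the endothelial cells in 1 step, an alternative chosen after seeing the data, gave 37, 7 and 5 members. No paired analysis was possible because no treatment groups share a mouse, and the prefrontal libraries of the same mice were not used here. Excitatory neurons numbered 10 to 69 per mouse, and levels on few UMIs are given with their counts.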
